A study of Mus musculus with 46 samples.

Results

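Interneuron-selective cells are cortical GABAergic neurons that carry vasoactive intestinal peptide (Vip) and the calcium-binding protein calretinin (Calb2). They were taken as the cells whose names in the deposited table carry the interneuron-selective prefix, which gave 63 of the 584 cells in the series. The 63 cells came from layer 2/3 of the frontal cortex of 2 female mice at postnatal day 32, numbered animals 3 and 4, with the genotype Vip-Flp; CR-Cre; Ai65. Ai65 makes a red fluorescent protein where both Flp and Cre have acted, so a labelled cell had expressed both drivers at some time. Vip and Calb2 therefore check the label and are not findings. Animal 3 gave libraries 1 and 2 and animal 4 gave libraries 3 and 4, with 15 cells in library 1 and 16 in each of the others. The libraries of animal 3 were sequenced on lane 5 and those of animal 4 on lane 6, so animal and lane cannot be told apart.

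All cells were single red neurons isolated from fresh brain slices of mice labelled as wild type, and their RNA was amplified linearly in pooled libraries. Martinotti cells (Sst-Flp; CR-Cre; Ai65) came from 2 females at day 35 in layer 2/3 and shared the flow cell of the interneuron-selective libraries. CCK basket cells (Vip-Flp; CCK-Cre; Ai65) came from 2 males at days 39 and 40 in layers 2 and 3. Long projecting cells (Sst-Flp; Nos1-Cre; Ai65) came from 4 males at days 28 and 29. PV basket cells (Pv-iresCre; Ai14, all layers) came from 4 mice of both sexes at days 58 to 83. Chandelier cells carried Nkx2.1-CreER; Ai14, induced by tamoxifen in the embryo, and came from 2 males at day 34 in layers 5 and 6 and from 2 females at days 40 to 58 at the border of layers 1 and 2/3. The labels give the second of these females, animal 14, an age of 58 days and Ai15 in 1 library and 40 days and Ai14 in the other 2, and it was kept as 1 animal. Martinotti and upper chandelier cells were female like the interneuron-selective cells, PV basket cells came from both sexes, and of the 6 types only Martinotti cells shared the flow cell. In the comparison with all 6 types, the part of sex, age and flow cell was not separated from that of cell type.

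In the neocortex, Vip interneurons with calretinin are mostly bipolar cells born in the caudal ganglionic eminence. They contact other interneurons, above all the somatostatin (Sst) Martinotti cells, and so release pyramidal dendrites from inhibition. They are known to respond to acetylcholine through nicotinic receptors and to serotonin through the ion channel receptor 5-HT3A, and some of them also make acetylcholine.

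The promoters of 4 genes that are described below are shown. Vip and Sst drive Flp in the interneuron-selective and Martinotti lines, so their difference between these types follows from the label. Chat and Slc18a3, whose starts lie close together on the minus strand of chromosome 14, were high in the same libraries. Whether reads of Chat and Slc18a3 overlap was not tested. Each window runs from 250 bases before to 50 bases after the start of the gene, from RefSeq on GRCm38.p6. Capitals mark TGACG on either strand, the core of the cAMP response element.
Vip, chr10:5638968-5639267, plus strand: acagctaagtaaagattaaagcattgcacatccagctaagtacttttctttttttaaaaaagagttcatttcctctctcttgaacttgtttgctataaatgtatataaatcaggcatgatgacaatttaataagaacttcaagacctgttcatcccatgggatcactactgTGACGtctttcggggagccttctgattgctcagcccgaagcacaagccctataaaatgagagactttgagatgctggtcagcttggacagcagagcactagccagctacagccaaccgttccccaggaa
Sst, chr16:23890795-23891094, minus strand: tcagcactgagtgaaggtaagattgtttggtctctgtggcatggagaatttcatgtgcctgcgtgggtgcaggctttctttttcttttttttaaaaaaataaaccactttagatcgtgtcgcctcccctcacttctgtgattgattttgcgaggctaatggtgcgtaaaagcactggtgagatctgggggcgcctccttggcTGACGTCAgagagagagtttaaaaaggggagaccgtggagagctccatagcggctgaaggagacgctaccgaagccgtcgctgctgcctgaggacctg
Chat, chr14:32465860-32466159, minus strand: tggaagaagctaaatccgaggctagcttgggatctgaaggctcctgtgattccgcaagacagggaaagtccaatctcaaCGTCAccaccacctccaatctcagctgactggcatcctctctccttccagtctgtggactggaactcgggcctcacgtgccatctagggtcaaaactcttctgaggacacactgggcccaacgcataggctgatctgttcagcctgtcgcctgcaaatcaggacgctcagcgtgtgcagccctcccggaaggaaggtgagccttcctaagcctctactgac
Slc18a3, chr14:32464801-32465100, minus strand: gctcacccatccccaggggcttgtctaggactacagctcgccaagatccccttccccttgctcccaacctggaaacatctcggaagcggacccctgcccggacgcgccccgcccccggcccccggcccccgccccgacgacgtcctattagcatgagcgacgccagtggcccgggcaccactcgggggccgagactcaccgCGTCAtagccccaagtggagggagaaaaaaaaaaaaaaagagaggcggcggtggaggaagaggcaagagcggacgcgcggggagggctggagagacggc
The motif begins 79 bases before the start in Vip, 171 in Chat and 49 in Slc18a3. In Sst a copy on each strand overlaps the other, and they begin 48 and 45 bases before the start. The same letters occur in 21.0% of the 27025 promoters of this length, so a match describes these windows and no more. Of the 7 neuropeptide genes called higher below, 4 had a promoter in the table and 1 held the motif, and of the 5 called lower 4 held it.

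The 4 libraries held 530927, 672811, 1092091 and 803504 counts, in order of library number. A cell held between 8574 and 170674 counts, with a median of 42258, the lowest median of the 7 types, whose other medians ran from 62608 to 155732. Cells of a library differed from each other by 1.01 to 1.02 times the sampling noise, so the barcodes of a library could not be told apart by their profiles. The libraries use the same 16 barcodes, 15 of them in all 4. Pairs of libraries differed by 19.3 to 28.4 times the sampling noise. This ratio grows with the counts, and it was highest for the pair from animal 4, which held the most counts. By correlation of log2 levels the pairs within animals 3 and 4 were at 0.379 and 0.38. Pairs across the animals were at 0.354 to 0.365. Values below are therefore CPM, counts relative to the total, of library sums, or of animal sums with the mean ± SD over n = 2 animals, both scaled by the trimmed mean of M values (TMM). The library and animal sets were scaled separately. In such sums, fewer cells with a transcript and less of it per cell cannot be told apart.

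Markers of other cell types differed between these libraries. The summed level of the oligodendrocyte marker list was 98.4, 58.3, 3895 and 157 CPM in libraries 1 to 4. In library 3 this included the myelin genes Mal (770.1 CPM), Cnp (369.6 CPM), Mog (342 CPM) and Cldn11 (259 CPM), while Opalin and Mobp were at 0 in the other 3. Of 11 tested members, 9 were called higher, and 0 without library 3. Oligodendrocyte precursor markers summed to 4.88, 6.41, 114 and 3.51 CPM, again highest in library 3. Microglial markers summed to 11.4, 319, 98.1 and 22.3 CPM, with Tmem119 at 79.5 CPM in library 2 and at 0 in the other 3. Markers of CCK basket cells summed to 1569, 4059, 836 and 854 CPM, so library 2 was the highest for these as well. This list holds Htr3a and Crh, which are described below in the interneuron-selective cells. Whether its level came from other cells or from the labelled cells was not tested. Endothelial markers (71.5, 62.8, 63.7 and 31.6 CPM), astrocyte markers (336, 232, 409 and 260.04 CPM) and excitatory neuron markers (224, 183, 321 and 300.5 CPM) stood within narrower ranges. Counts that lead a paragraph are also given without library 3, and the part of other cells in a single gene's level was not tested otherwise.

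**Figure D1:**
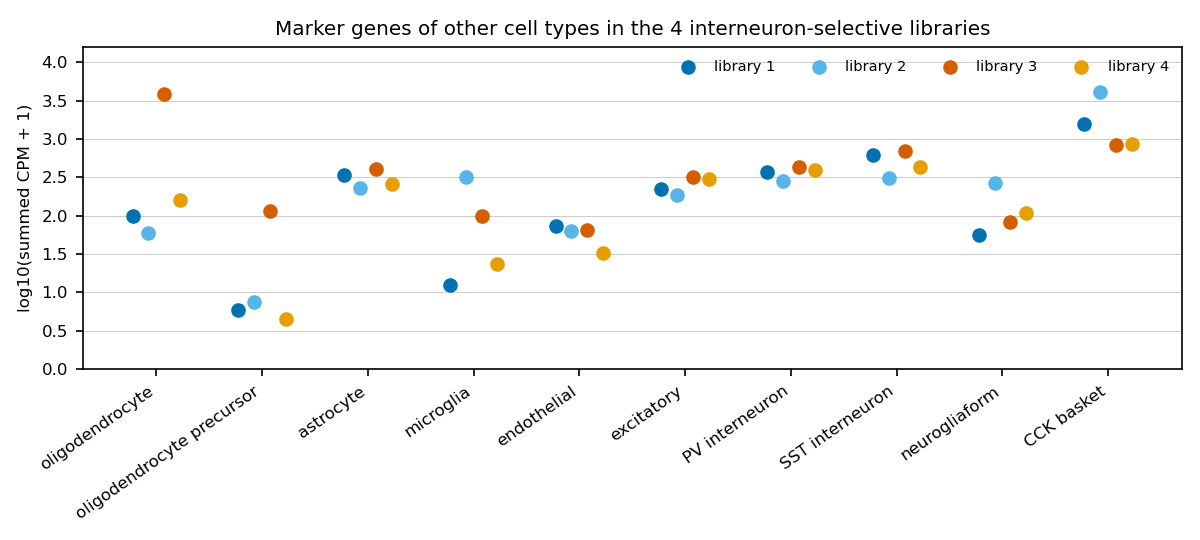
Summed CPM of marker lists for other cell types in the 4 interneuron-selective libraries (vertical axis: log10 of the sum plus 1), 1 point per library. Library 3 stands apart for oligodendrocytes at 3895 CPM and their precursors at 114 CPM, and library 2 is the highest for microglia at 319 CPM and for CCK basket cells at 4059 CPM.

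All 6 markers of the type were present in the 4 libraries. Vip stood at 2294, 2664, 2043 and 2039 CPM in libraries 1 to 4, while the 4 Martinotti libraries held no Vip count. Calb2 stood at 569, 304, 412 and 319 CPM, above the 4 CCK basket libraries (2.62 to 158 CPM) and the 4 Martinotti libraries (34.6 to 198 CPM). Long projecting libraries held 49.6 to 404 CPM of Calb2 and so overlapped with them. Cck, the driver of the CCK basket line, stood at 392, 960.2, 186 and 139 CPM, below each CCK basket library (1375 to 3824 CPM). Sst was at 1.63, 0, 0 and 0 CPM, against a Martinotti mean of 1451 CPM. The messages of the drivers thus went with the labels in all 4 libraries. Vip reached 2448 CPM in 1 deep chandelier library and 334 CPM in 1 upper chandelier library.

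**Figure D2:**
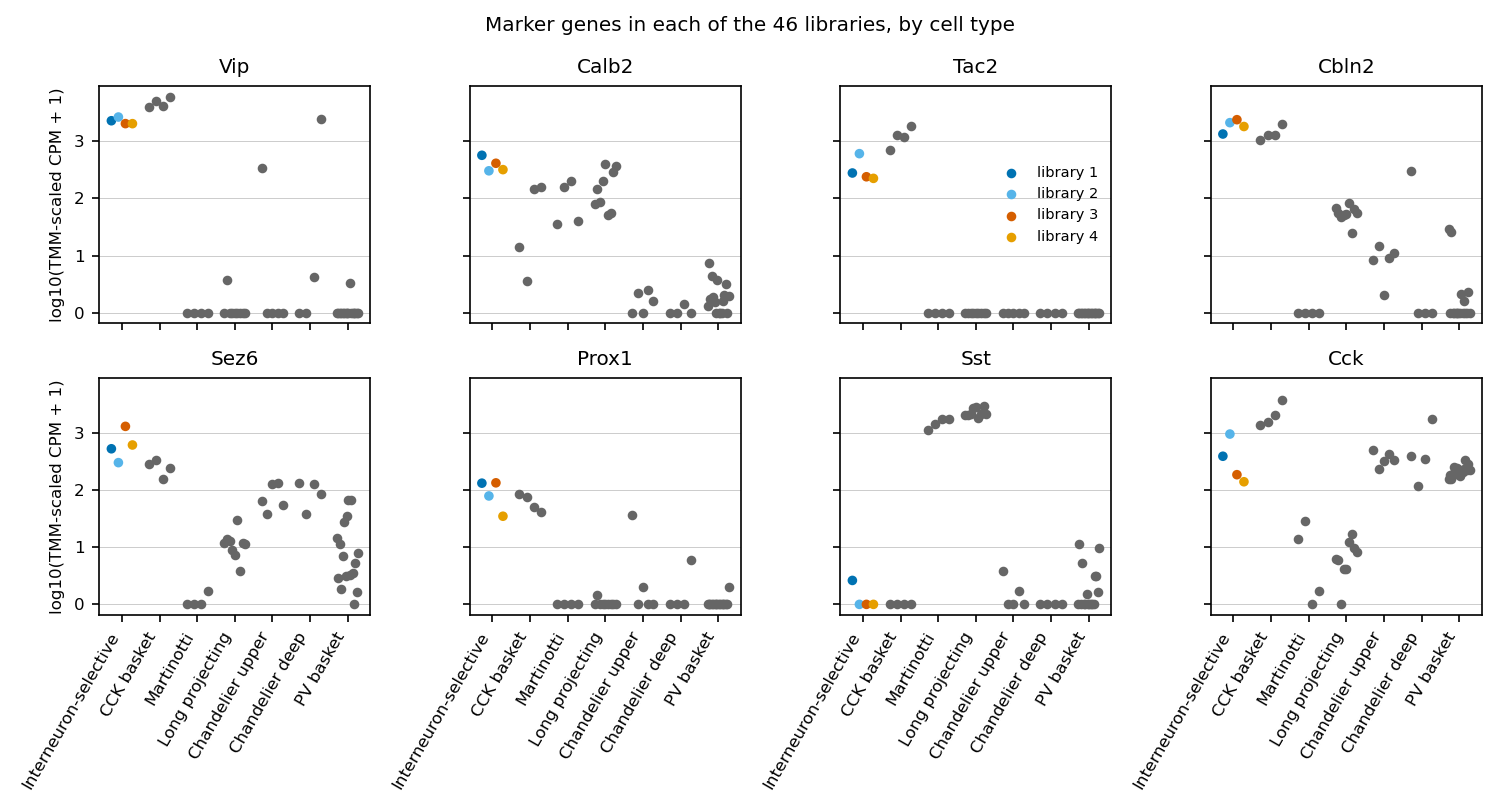
Levels of marker genes (vertical axis: log10 of TMM-scaled CPM plus 1) in each of the 46 libraries, grouped by cell type, with the interneuron-selective libraries in colour. Vip, Tac2, Cbln2 and Prox1 are also high in CCK basket cells, whereas Sst is high in Martinotti and long projecting cells.

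Interneuron-selective cells were compared with the mean of the other 6 types, which asks what sets them apart among these neurons. At an adjusted p of 0.05 (edgeR quasi-likelihood test with Benjamini-Hochberg adjustment), 1556 of 15533 genes differed, 10.0% of those tested, with 5.73% higher and 4.29% lower. These shares over all genes stand beside each list count below, and a count near them is no result about the list. List counts without an animal stand beside the smaller totals given in the last section. Without library 3 the count was 1693, of which 1158 were among the 1556. Of 178 named calls over all comparisons, 138 still passed in the same direction without animal 3 and 111 without animal 4. The comparison averages the other types on a log scale, so a gene can be higher than that mean and still be no higher than CCK basket cells. CCK basket cells were the highest other type for 33.4% of the genes called higher and for 18.3% of all genes tested. Fitted log2 differences (± SE) are given below where each type had counts, because with a type at 0 the fitted value depends on the added prior count. In 626 genes, interneuron-selective cells and another type were both at 0, and for such genes only levels and the Martinotti comparison are given.

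By the naming rule, 85 genes were called higher at 50 CPM or more with all 4 libraries above the mean of every other type, and the 24 with the largest fitted difference are plotted. CCK basket cells were the next highest type for 15 of the 24 and Martinotti cells for 4. Taken singly, 3 of the 24 passed against CCK basket cells (Xist, Tsix and Ostf1) and 8 against Martinotti cells. The other genes named here were thus not called against CCK basket cells. Calb2, which checks the label, is also among the 24. Several are receptors or channels at the cell surface. Unc5a, a netrin receptor in axon guidance, stood at 68.3, 155, 229.9 and 165 CPM, against 38.9 CPM in Martinotti cells, the next highest type, and differed by 3.51 ± 0.59 (log2, adjusted p = 0.00271). Kcnh3, a voltage-gated potassium channel of the ether-a-go-go family, stood at 52.0, 30.8, 68.1 and 78.5 CPM, against 14.9 CPM in Martinotti cells, and differed by 4.38 ± 0.66 (adjusted p = 0.00141). All 4 libraries lie above the other types' means for both, as the rule requires. Further surface genes were Tpbg, a glycoprotein that modulates Wnt signals (92.5 ± 26.0 CPM), and Igsf3, an immunoglobulin-domain protein (298 ± 33.5 CPM). The Igsf3 call did not pass without animal 3, without animal 4 or among the types labelled female only. Egfr (112 ± 87.5 CPM) is another, and its counts are partly fractional. Whether Egfr shares reads with other genes was not tested.

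Among genes of the nucleus and cytoplasm, Nr2e1, an orphan nuclear receptor also called Tlx, stood at 94.3, 97.4, 273 and 84.3 CPM, with each other type at 14.4 CPM or less, and differed by 4.48 ± 0.44 (log2, edgeR adjusted p = 9.99e-05). Nfix, a nuclear factor I transcription factor, stood at 137, 147, 198 and 185 CPM and differed by 4.06 ± 0.69 (adjusted p = 0.00292), with CCK basket cells at 110.3 CPM. Cpne7, a calcium-dependent phospholipid-binding copine, stood at 546, 701, 705 and 649 CPM and differed by 5.05 ± 0.64 (adjusted p = 0.000438), with CCK basket cells at 402 CPM. For both Nfix and Cpne7, CCK basket cells come next and the other 5 types lie well below them. Rnd1, a small GTPase of the cytoskeleton, averaged 119.5 ± 0.138 CPM (SD, n = 2 animals) and differed by 2.83 ± 0.33 (adjusted p = 0.000286). The cyclin gene Ccnd1 averaged 80.2 ± 26.0 CPM, Dok7, an adaptor of the muscle-specific kinase, 73.5 ± 3.04 CPM and Cpox, an enzyme of haem synthesis, 92.4 ± 45.6 CPM. The list also holds Xist, the RNA of X inactivation (482 ± 102 CPM), and its overlapping antisense partner Tsix (505 ± 100.4 CPM), which cannot be told apart without strand. Xist was at 0.494 CPM or less in the 3 types taken from males and at 193 CPM in the female Martinotti cells.

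**Figure D3:**
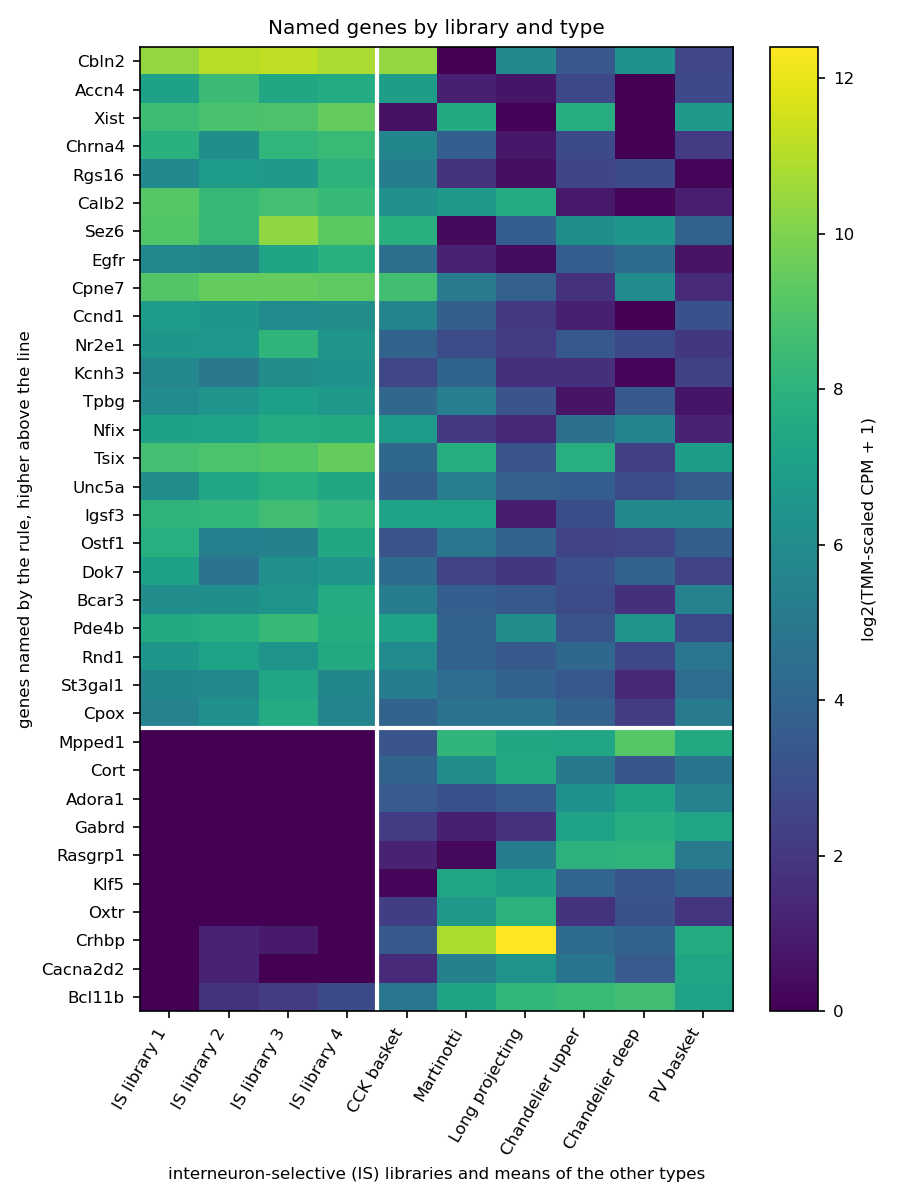
Levels of the 24 genes named as higher and the 10 named as lower (colour: log2 of TMM-scaled CPM plus 1, rows are genes) in the 4 interneuron-selective libraries and as means of the other 6 types. The higher genes stand out in all 4 libraries and many of them also in CCK basket cells, and the lower genes are at or near 0 in the 4 libraries.

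The 10 genes named as lower include several that were high in Sst types. Klf5, a Krüppel-like transcription factor, was at 0 in all 4 libraries, against 154 CPM in Martinotti and 121 CPM in long projecting cells. Oxtr, the oxytocin receptor, was at 0 in all 4, against 105 CPM in Martinotti and 246 CPM in long projecting cells (edgeR adjusted p = 0.00493). Crhbp, which binds and sequesters corticotropin-releasing hormone, was at 0, 1.28, 0.884 and 0 CPM, against 1855 CPM in Martinotti cells. Others were high elsewhere. Rasgrp1, a Ras activator regulated by calcium and diacylglycerol, was at 0 in all 4 libraries and at 252 and 265 CPM in upper and deep chandelier cells. Cacna2d2, an auxiliary calcium channel subunit, was at 0, 1.28, 0 and 0 CPM, against 162 CPM in PV basket cells. Bcl11b, a zinc-finger transcription factor, was at 0, 2.56, 3.54 and 5.86 CPM, with the lowest other type at 28.6 CPM, and differed by -5.79 ± 0.84 (adjusted p = 0.00108). A count of 0 over the type allows up to 0.850 CPM, by counting error only.

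Lineage factors are given by the eminence they are known to mark. Of 9 genes of the caudal ganglionic eminence, 6 were higher and 1 lower, with the same counts without library 3. Over the 6 with counts in every type the median fitted difference was 2.59, against -0.01 over all such genes. Sp8, a zinc-finger factor, stood at 19.5, 30.8, 44.2 and 22.3 CPM, below CCK basket cells at 135 CPM, with the other 5 types at 0.0570 CPM or less. The homeobox factor Prox1 stood at 132, 78.2, 134 and 34.0 CPM and Nr2f2, also called COUP-TFII, at 42.3, 131, 45.1 and 417 CPM, so that Nr2f2 was highest in library 4 where Prox1 was lowest. The member that was lower, Sp9, was at 0, 8.97, 0 and 0 CPM, against 15.7 CPM in CCK basket and 217 CPM in deep chandelier cells (edgeR adjusted p = 0.0416).

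Of 8 genes of the medial ganglionic eminence, the source of the Sst and PV types, 3 were lower and 0 higher, also without library 3. The number lower was 2 without animal 3 and 1 without animal 4. Lhx6, which marks this lineage after mitosis, had no count in interneuron-selective or CCK basket cells. It stood at 75.4 CPM in Martinotti cells, at least 88.8-fold higher there (edgeR adjusted p = 0.000136 for that pair). In the wider list of 71 transcription factors, 12 were higher and 8 lower, and without library 3 it was 12 and 10 of 70. Leaving out animal 3 gave 10 higher and 5 lower, and leaving out animal 4 gave 6 higher and 2 lower. Tox3, an HMG-box factor, stood at 1.63, 0, 0 and 4.69 CPM, against 0.163 CPM in CCK basket cells and 41.4 CPM or more in the other types (adjusted p = 0.000286). Prdm8, a factor of the PR-domain family, was at 119, 246, 0.884 and 242 CPM, so library 3 lacked what the other 3 libraries held.

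The neuropeptide list had 7 of 24 tested members higher and 5 lower, with the same counts without library 3. The 7 include Vip, whose call follows from the label and is not a finding. The counts were 5 higher and 3 lower without animal 3, and 7 higher and 2 lower without animal 4. Penk, the precursor of enkephalins, was even between the libraries, at 678, 560.2, 569 and 603 CPM, and differed by 4.04 ± 0.81 (log2, edgeR adjusted p = 0.00752), although long projecting cells had more at 838 CPM. Crh, corticotropin-releasing hormone, was at 297, 1401, 201 and 226 CPM, with CCK basket cells at 3689 CPM. Tac2, the precursor of neurokinin B, was at 278, 608, 239 and 224 CPM, with CCK basket cells at 1166 CPM and the other 5 types at 0. Both Crh and Tac2 were highest in library 2 and had higher means in CCK basket cells, but neither passed in that pair (adjusted p = 0.300 for Crh and 0.119 for Tac2). Pthlh, a parathyroid-hormone-like peptide, was at 164, 249, 108 and 41.0 CPM, with upper chandelier cells at 541 CPM. The granins Scg2 (227 ± 64.2 CPM) and Chga (47.8 ± 11.2 CPM), proteins of dense-core vesicles, differed by -1.84 ± 0.31 and -1.18 ± 0.29. Of 14 peptide-processing and vesicle genes 2 were lower, the amidating enzyme Pam and the vesicle-priming factor Cadps. Penk, Crh and Chga, like Galr1 below, were chosen after their values were seen.

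Of 26 peptide receptors tested, 5 were higher and 3 lower, and 4 and 2 of 25 without library 3. Without animal 3 it was 4 higher and 1 lower, and without animal 4 it was 2 higher and 0 lower. The neuropeptide Y receptor Npy1r stood at 60.1, 34.6, 44.2 and 29.3 CPM and differed by 2.37 ± 0.52 (log2, edgeR adjusted p = 0.0127), with 62.9 CPM in CCK basket cells. Its call did not pass without animal 3 or without animal 4. The CRH receptor Crhr1 was at 0, 21.8, 15.9 and 1.17 CPM, with each other type at 1.00 CPM or less. The gastrin-releasing peptide receptor Grpr was at 3.25, 0, 4.42 and 193 CPM, and the galanin receptor Galr1 at 0, 0, 22.1 and 0 CPM. The levels of Grpr and Galr1 thus come almost wholly from 1 library each. The receptors of VIP itself were near 0, with Vipr1 at 0, 3.85, 0 and 0 CPM and Vipr2 at 0, 0, 0.884 and 0 CPM, and 42.0 CPM of Vipr1 in CCK basket cells. Neither passed the test (adjusted p = 0.990 and 0.402).

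Genes for making and moving acetylcholine were higher in 4 of 5 tested members, and in 3 without library 3. Chat, choline acetyltransferase, stood at 3.25, 0, 23.0 and 99.6 CPM (edgeR adjusted p = 0.00115 against the 6 types). Slc18a3, the vesicular acetylcholine transporter, stood at 0, 0, 16.8 and 79.7 CPM. Both were thus high in the libraries of animal 4 and at or near 0 in those of animal 3, and both were highest in library 4. The animals also differ in sequencing lane. Slc5a7, the choline transporter, stood at 42.3, 1.28, 57.5 and 63.3 CPM, with long projecting cells at 109.5 CPM. Slc10a4, a vesicular transporter of cholinergic neurons, was at 0, 0, 39.8 and 1.17 CPM, so its level comes from library 3. CCK basket cells had 7.68 CPM of Chat and 7.10 CPM of Slc18a3, and no other type exceeded 0.458 CPM of Chat. Without animal 4 the adjusted p of Chat was 0.697, and 1 of the 5 genes passed. Ache, the degrading enzyme, averaged 15.2 ± 1.28 CPM and did not pass (adjusted p = 0.262).

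**Figure D4:**
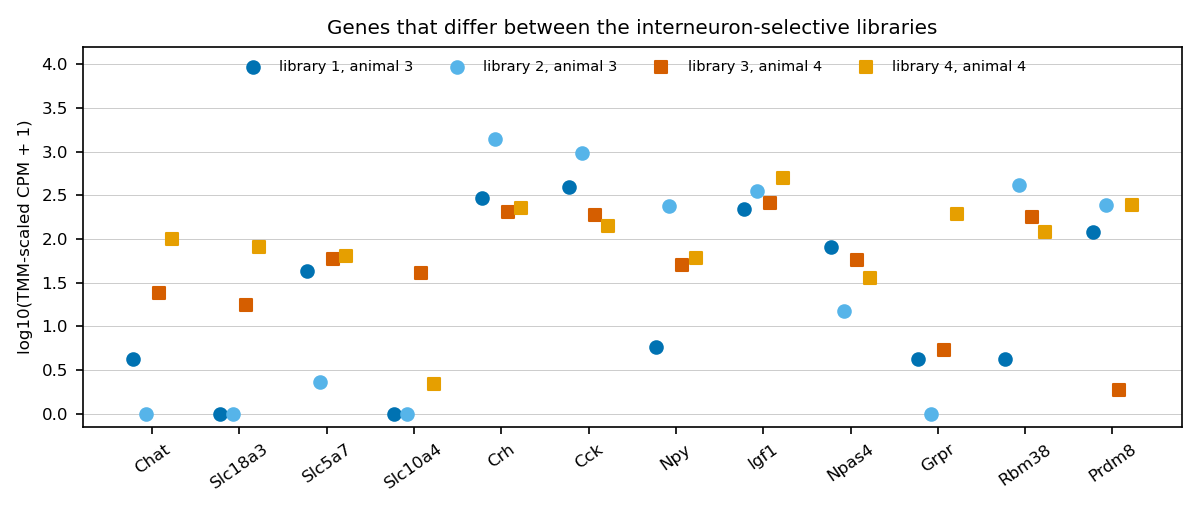
Levels of genes that vary between the 4 interneuron-selective libraries (vertical axis: log10 of TMM-scaled CPM plus 1), circles for animal 3 and squares for animal 4. Chat and Slc18a3 are highest in library 4 and Crh and Cck in library 2, and the genes were chosen for the plot after their values were seen.

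Among monoamine receptors 3 of 23 were higher, with the same count without library 3. The alpha-1B adrenergic receptor Adra1b stood at 499, 653, 798 and 916 CPM and differed by 4.17 ± 0.60 (log2, edgeR adjusted p = 0.00110), with CCK basket cells at 1020 CPM and long projecting cells at 233 CPM. Htr3a, the 5-HT3A subunit, was at 164, 297, 43.3 and 87.9 CPM, and Htr6, a serotonin receptor coupled to cAMP, at 19.5, 42.3, 0 and 28.1 CPM. Both serotonin receptors were highest in library 2 and lowest in library 3.

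Ionotropic glutamate receptors had 3 of 18 members higher and 3 lower, with the same counts without library 3. Leaving out animal 3 gave 2 higher and 3 lower, and leaving out animal 4 gave 2 higher and 1 lower. The NMDA receptor subunit Grin2b stood at 1157, 1533, 874 and 1205 CPM, with each other type at 518 CPM or less, and differed by 1.48 ± 0.24 (log2, edgeR adjusted p = 0.00233). The kainate subunit Grik2 stood at 1470, 641, 1009 and 1433 CPM, with each other type at 465 CPM or less, and differed by 1.62 ± 0.22 (adjusted p = 0.000631). For both, the lowest interneuron-selective library lies above the highest mean of another type. The AMPA subunit Gria1 stood at 419, 147, 812 and 568 CPM, against 4551 CPM in Martinotti cells, and differed by -1.67 ± 0.29, and Gria3 by -1.64 ± 0.36, though Gria3 did not pass without library 1 (adjusted p = 0.130). The auxiliary subunits Cacng3 (-3.39 ± 0.73) and Neto2 (-3.93 ± 0.91) were lower as well, and Shisa6 was higher (1.65 ± 0.34), at 185 ± 40.7 CPM. Shisa6 did not pass without library 3 (adjusted p = 0.0519) or without animal 3. Cacng3 did not pass without animal 3 or without animal 4.

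Of 7 metabotropic glutamate receptors tested, 3 were higher, all of group III, which lowers cAMP, and 4 without library 3. Grm8 and Grm7 (edgeR adjusted p = 0.000814 and 0.00344) passed under each alternative run. Grm4 stood at 3.25, 14.1, 31.8 and 28.1 CPM and differed by 2.46 ± 0.53 (log2, edgeR adjusted p = 0.0112), with Martinotti cells at 41.7 CPM. The Grm4 call did not pass without animal 4 or among the types labelled female only. Of 14 GABA receptor subunits 1 was lower against the 6 types, with 4.29% lower over all genes. Against Martinotti cells, the subunits Gabrb2 (2.72 ± 0.64) and Gabrg3 (1.37 ± 0.22) were higher. Of 10 genes of GABA synthesis, transport and fate 3 were lower. The vesicular GABA transporter Slc32a1 averaged 1214 ± 287 CPM and did not pass (-0.14 ± 0.16, edgeR adjusted p = 0.644).

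Voltage-gated potassium channels and their partners had 7 of 41 members higher and 3 lower, and 6 and 4 without library 3. Kcnq5, a subunit of the M current that acetylcholine closes, stood at 481, 532, 384 and 507 CPM and differed by 1.74 ± 0.32 (log2, edgeR adjusted p = 0.00448), with CCK basket cells at 847 CPM. Kcnd2, the Kv4.2 subunit of the A current, stood at 209.7, 374, 208 and 235 CPM, below each other type's mean of 404 CPM or more, and differed by -1.58 ± 0.26 (adjusted p = 0.00219). It was also lower against CCK basket and Martinotti cells taken singly (adjusted p = 0.0409 and 0.0257). Kcnt2, a sodium-activated potassium channel, stood at 239, 519, 328 and 389 CPM and differed by 2.82 ± 0.56. Accn2, an acid-sensing channel subunit, hardly varied between libraries, at 84.5, 84.6, 86.7 and 84.3 CPM, and differed by 2.29 ± 0.51 (adjusted p = 0.0137). The Accn2 call nevertheless did not pass without animal 3, without animal 4 or among the types labelled female only. The T-type calcium channel gene Cacna1h was at 0, 12.8, 49.5 and 78.5 CPM, with each other type at 15.1 CPM or less.

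Synaptic adhesion molecules had 17 of 57 tested members higher and 6 lower, and 16 and 5 without library 3. The counts were 9 higher and 1 lower without animal 3, and 8 higher and 4 lower without animal 4. Over the 54 members with counts in every type the median fitted difference was 0.34, against -0.01 over all such genes. Nrxn2, a presynaptic neurexin, was even, at 954, 901, 923 and 807 CPM, and differed by 1.29 ± 0.17 (log2, edgeR adjusted p = 0.000631). Cbln2, a secreted cerebellin that binds neurexins, stood at 1343, 2123, 2393 and 1818 CPM, with CCK basket cells at 1332 CPM and Martinotti cells at 0. Nxph1, a neurexophilin that also binds neurexins, was at 16.3, 10.3, 7.07 and 7.03 CPM and differed by -5.03 ± 0.52 (adjusted p = 0.000120). CCK basket cells had 18.0 CPM of Nxph1 and each of the other 5 types 397 CPM or more. Genes for partners of neurexins thus differed in opposite directions. Cntn6, a contactin of the cell surface, stood at 397, 333, 157 and 456 CPM and differed by 1.91 ± 0.31 (adjusted p = 0.00233).

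Axon guidance genes had 10 of 58 members higher and 1 lower, and 9 and 1 of 57 without library 3. Without animal 3 it was 9 higher and 3 lower, and without animal 4 it was 5 higher and 1 lower. Dscam, a homophilic adhesion receptor, stood at 792, 427, 919.6 and 805 CPM and differed by 2.68 ± 0.33 (log2, edgeR adjusted p = 0.000354), with 561 CPM in CCK basket cells. Sema5b, a transmembrane semaphorin, was at 294, 57.7, 91.1 and 211 CPM. The neuropilin Nrp1 was at 35.8, 2.56, 216 and 64.4 CPM and the plexin Plxnb3 at 0, 0, 28.3 and 0 CPM, both highest in library 3, which carried the oligodendrocyte markers. Unc5d, a netrin receptor related to Unc5a, was at 16.3, 20.5, 19.5 and 25.8 CPM, against 810.2 CPM in deep chandelier cells, and differed by -3.38 ± 0.45 (adjusted p = 0.000646). Unc5a and Unc5d thus differed in opposite directions.

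Of 37 tested genes of TGF-beta, BMP and Wnt signalling, 9 were higher and 0 lower, and 8 and 0 of 38 without library 3. Without animal 3 the number higher was 5 and without animal 4 it was 3. Wnt5a, a Wnt ligand of the non-canonical kind, stood at 211, 192, 210.4 and 96.1 CPM and differed by 4.18 ± 0.66 (log2, edgeR adjusted p = 0.00194), with CCK basket cells at 171 CPM and each other type at 33.8 CPM or less. Its relative Wnt5b stood at 199.95, 61.5, 763 and 179 CPM, highest in library 3, and differed by 3.15 ± 0.38 (adjusted p = 0.000318). The modulators Dkk3 (172, 150.00, 166 and 22.3 CPM) and Sfrp2 (21.1, 1.28, 1.77 and 34.0 CPM), both secreted, were higher as well. Among growth factors and their receptors 5 of 42 were higher and 1 lower, with the same counts without library 3. Igfbp5, which binds insulin-like growth factors, stood at 53.6, 141, 21.2 and 67.9 CPM, with CCK basket cells at 64.3 CPM and each other type at 3.6 CPM or less. Kit, the stem cell factor receptor, was at 185, 604, 109 and 248 CPM, highest in library 2.

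Genes of transmitter release had 9 of 50 members lower and 5 higher, and 7 and 4 without library 3. Leaving out animal 3 gave 3 lower and 3 higher, and leaving out animal 4 gave 5 lower and 2 higher. The calcium sensor Syt1 stood at 1052, 1524, 1828 and 1266 CPM, below each other type's mean of 2014 CPM or more, and differed by -1.13 ± 0.18 (log2, edgeR adjusted p = 0.00187). The membrane fusion protein Snap25 differed by -1.29 ± 0.22 and the calcium sensor Syt7 by -1.43 ± 0.28, which did not pass without library 3 (adjusted p = 0.180). Cplx2, a complexin, stood at 738, 599, 363 and 622 CPM and was higher (1.5 ± 0.32), and so was Syt5 (1.89 ± 0.33). Release genes thus differed by member. Of 75 genes of oxidative phosphorylation 21 were lower and 0 higher, and 22 and 0 without library 3. Without animal 3 and without animal 4 the number lower was 10 each time. It was 4 with the spread set per type in limma's voom and 0 among the types labelled female only, where 508 and 134 of all genes passed. The median fitted difference of the list over all replicates was -0.51. Cyc1, of respiratory complex III, stood at 48.8, 74.4, 74.3 and 85.5 CPM and differed by -1.62 ± 0.25 (adjusted p = 0.00188), and Uqcrb of the same complex by -1.97 ± 0.33. Interneuron-selective cells also had the lowest median count per cell. With all replicates thinned to the smallest total, 18 of the 75 genes were lower and 0 higher.

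The list of G-protein regulators had 6 of 34 members higher and 2 lower, and 7 and 3 of 35 without library 3. The counts were 3 higher and 0 lower without animal 3, and 3 higher and 1 lower without animal 4. Rgs8, which speeds the turn-off of G proteins, stood at 269.9, 272, 702 and 539 CPM and differed by 3.79 ± 0.40 (log2, edgeR adjusted p = 0.000127), with CCK basket cells at 374 CPM and PV basket cells at 0.331 CPM. Gnai3, an inhibitory G-protein subunit, stood at 1.63, 3.85, 7.07 and 9.37 CPM and differed by -3.39 ± 0.72. In cyclic nucleotide signalling 7 of 37 were lower and 3 higher, and 4 and 1 without library 3. Without animal 3 it was 4 lower and 2 higher, and without animal 4 it was 3 lower and 1 higher. Adcy1, a calcium-activated adenylyl cyclase, was at 4.88, 0, 32.7 and 49.2 CPM and differed by -3.08 ± 0.65. Several genes of this list, such as Prkacb and Pde1a, have partly fractional counts, so their calls are uncertain. Among 23 activity-induced genes tested, 1 was higher and 2 were lower. Over all genes 5.73% were higher and 4.29% lower, so no result is read from these counts. Dusp1, a phosphatase gene, was at 0, 1.28, 0.884 and 3.51 CPM and lower (-5.44 ± 0.72, adjusted p = 0.000625). The other calls, Npas4 (higher) and Egr1 (lower), did not pass without library 1, without animal 3 or without animal 4.

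**Figure D5:**
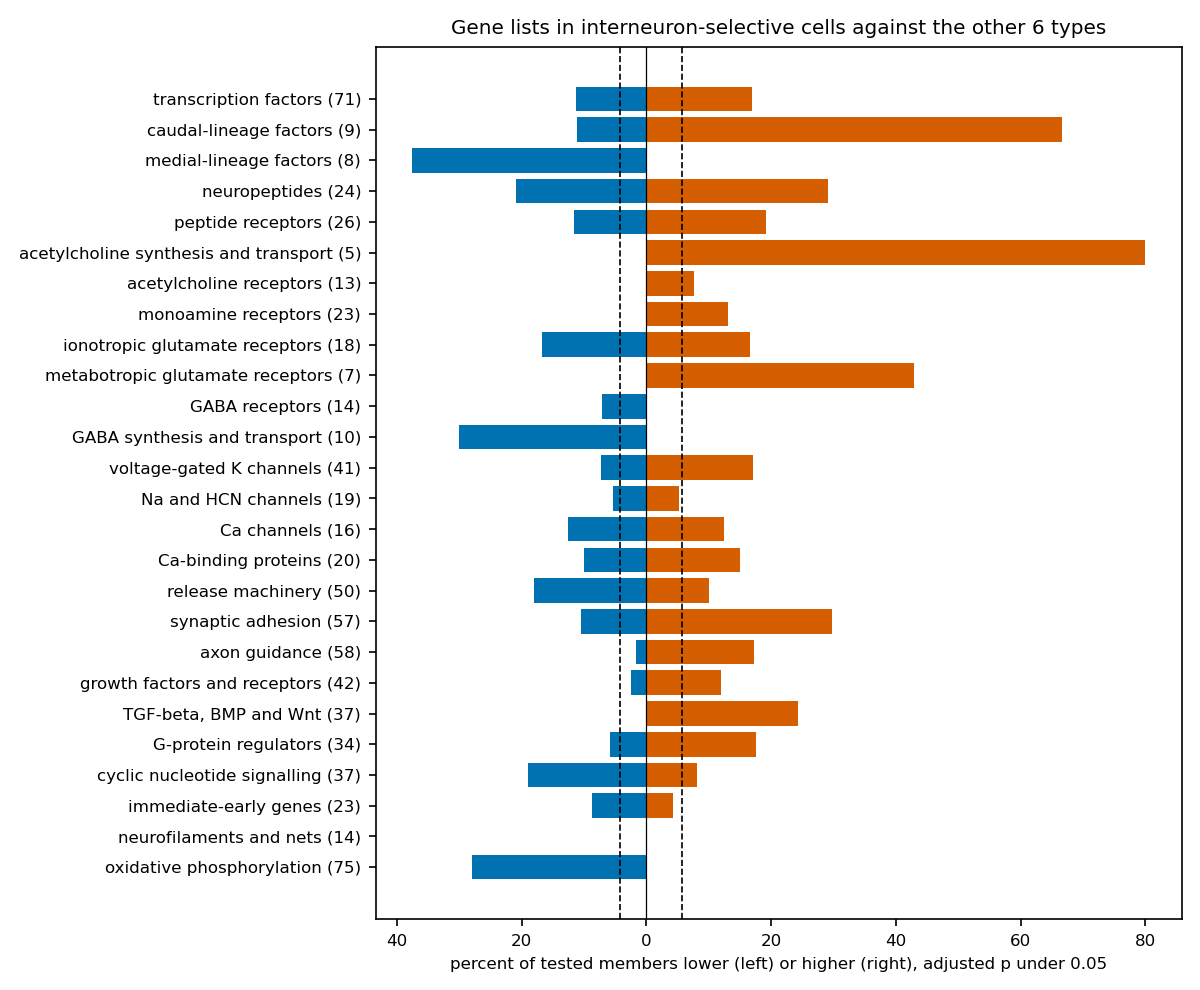
Percent of tested members of gene lists called higher (right) or lower (left) in interneuron-selective cells against the other 6 types at an adjusted p under 0.05. Dashed lines mark the share over all genes, 5.73% higher and 4.29% lower, and members of a list are not independent. The neuropeptide bar includes Vip and the calcium-binding bar Calb2, which only check the label.

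The CCK basket pair sets Vip neurons with calretinin against Vip neurons with Cck, from the other sex and another flow cell. Of the 15533 genes, 209 passed (1.35%), with 0.328% higher and 1.02% lower in interneuron-selective cells, and 297 passed without library 3. Vip did not overlap between the libraries, at 2039 to 2664 CPM against 3986 to 6026 CPM, but its fitted difference did not pass (-1.03 ± 1.80 log2, edgeR adjusted p = 0.804), and neither did that of Calb2 (2.34 ± 0.98, adjusted p = 0.224). Of the 8 genes named as higher, Xist (9.91 ± 0.61, adjusted p = 6.96e-06) and Tsix (4.88 ± 0.38, adjusted p = 2.59e-05) passed under each alternative run, in a pair that differs in sex. Tmub1, a ubiquitin-like transmembrane protein, stood at 138, 254, 495 and 34.0 CPM, against 16.8 CPM in CCK basket cells, and differed by 3.83 ± 0.54 (adjusted p = 0.00834), but did not pass without library 3 (adjusted p = 0.0693). Ostf1, Cidea, Slc27a4 and Gpr162 were also called higher, and none of these 4 passed without animal 4 or without either CCK basket animal. In limma's voom 4 genes passed in this pair. Igbp1, a phosphatase-binding protein, was lower, at 1.63, 2.56, 0.884 and 11.7 CPM against 168 CPM (-5.46 ± 0.58, adjusted p = 0.000748). Arpc3, an actin-nucleating subunit, was at 1.63, 0, 18.6 and 5.86 CPM against 213 CPM. Rn45s, the ribosomal RNA precursor, was also lower, at 608, 394, 958 and 1407 CPM against 12131 CPM, and did not pass without animal 3, and the part of ribosomal RNA carried into a library was not tested.

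The Martinotti pair shares flow cell, sex, layers, the CR-Cre driver and Ai65 with the interneuron-selective cells. Here 480 genes passed (3.09%), with 1.41% higher and 1.68% lower, and 573 passed without library 3. Vip and Cbln2 had no count in Martinotti cells and were at least 6199-fold and 5339-fold higher, with the floor taken as 3 counts over the type. The Vip difference follows from the label. Its call (edgeR adjusted p = 0.0457) did not pass without animal 3, without animal 4 or after thinning. Cbln2 (adjusted p = 0.0109) did not pass without either Martinotti animal, and neither gene passed in voom. Scx, a basic helix-loop-helix factor, stood at 1.63, 232, 50.4 and 168 CPM and at 0 in Martinotti cells, at least 316-fold higher (edgeR adjusted p = 0.00596). Library 1 lacked most of the Scx that the other 3 held. On the other side, the Ras-like gene Rasl11a was at 0 in all 4 libraries and at 234 CPM in Martinotti cells, at least 276-fold higher there. Nefm, the medium neurofilament, was at least 111-fold higher there (adjusted p = 0.0103). Neither Rasl11a nor Nefm passed without animal 4. Erbb4, the neuregulin receptor, stood at 1593, 1329, 1654 and 1969 CPM against 40.5 CPM (5.27 ± 0.54, adjusted p = 0.000187). Reln, the secreted glycoprotein reelin, averaged 35.7 ± 0.00601 CPM against 981 CPM (-4.78 ± 0.74, adjusted p = 0.00409). Gabrb2, Gabrg3, Erbb4 and Reln in this pair were chosen after their values were seen. Both pairs share the interneuron-selective libraries.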

How the data were processed

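The authors deposited 1 table of expected counts for 23335 genes in 584 cells, of which 4.07% of values were not whole (tolerance 1e-06). Per the submitters' processing notes the tools included Bowtie 0.12.7 and the build was mm9, and each amplified RNA carried a random tag, per the labels' protocols. No source used here names the counting tool. Fractional counts can come from reads shared between genes, which was not tested. Of the genes, 3813 had no count.

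Cells were summed to 46 libraries and 16 replicates. The labels name 18 animals, and PV basket animals 7 with 8 and 9 with 10 were merged. Sums were rounded and tested with edgeR 4.0.16 (quasi-likelihood, TMM, expression filter by type, robust) in R 4.3.3, with Benjamini-Hochberg adjustment over 15533 genes and a threshold of 0.05, all 7 types sharing 1 estimate of the spread. The biological coefficient of variation was 61.7%. Replicate totals ran from 1203737 to 12324142 counts. DESeq2 1.42.0 and limma 3.58.1 served as alternatives. Intervals and floors cover counting error only. Nothing says that the samples of an animal are independent, so they were summed. The p-values measure the spread between replicates, pooled over all 7 types. Interneuron-selective cells gave 2 of the 16 replicates, and the PV basket replicates are merged pairs of animals.

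Data were simulated for the comparison with the 6 types (15533 genes, 40 changed at each fold). Of these, 36 genes raised 8-fold, 21 raised 4-fold and 1 raised 2-fold were recovered. So were 4 genes lowered to 0.25 and 0 lowered to 0.5 of their level, with 0 false calls. Apart from the changed genes, which were drawn above a minimum count, all types shared the same mean. Differences by sex, age or flow cell were not simulated, so these counts hold for that setting only.

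Named genes passed at 50 CPM or more with all 4 libraries above (24 genes) or below (10 genes) every other type's mean, or were the 8 largest non-overlapping differences per side in each pair, or up to 6 members per list by adjusted p, or had at least 100 CPM in 1 library at 8 times the others or more (5 per library). The cells, gene lists and tests were chosen with earlier results of these data known. Some members of the lists are not reported here.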

Additional observations from a re-analysis of the deposited data

Results flagged for a closer look

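In groups of 4 libraries, a value was singled out when its gap to the nearest other library, as a share of the whole range, exceeded the 95% critical value of Dixon's test, which chance gives in about 1 of 20 groups. Of 37 genes named in the main comparison or always named, 5 had such a library. Nr2e1 stood at 273 CPM and St3gal1, a sialyltransferase gene, at 158 CPM in library 3. Bcar3, of integrin signalling, stood at 199 CPM in library 4. Tac2 stood at 608 CPM and Cacna2d2 at 1.28 CPM in library 2, and 1.28 CPM there is the level of 1 count. Of 10 marker lists for other cells, 2 had such a library: the oligodendrocyte sum of 3895 CPM and the precursor sum of 114 CPM, both in library 3.

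A further 20 genes were named because 1 library held nearly all of their counts, so that each had to stand apart. In library 1 these were Tusc1 at 1094 CPM, Steap2 at 219 CPM, Mir1983 at 206 CPM, Ammecr1l at 174 CPM and Slx4 at 167 CPM. In library 2 they were Slc30a7 at 468 CPM, Dnajb12 at 379 CPM, Tm7sf3 at 296 CPM, Fam132b at 287 CPM and Usp42 at 192 CPM. Library 3 had Mal at 770 CPM, Cldn11 at 259 CPM, Pced1a at 195 CPM, Tmem134 at 181 CPM and Pitrm1 at 152 CPM. Library 4 had Zik1 at 492 CPM, Gda at 211 CPM, Grpr at 193 CPM, Nom1 at 187 CPM and Rrs1 at 158 CPM. Mal and Cldn11 are myelin genes. Of 4253 genes at 100 CPM or more in a library, 45, 44, 62 and 49 met this naming rule in libraries 1 to 4.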

How the results depend on the processing

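Against the 6 types, the 1556 calls became 2488 with the DESeq2 test (49.0% higher, against 57.2%), 508 with the spread set per type in limma's voom (82.3% higher), and 134 among types labelled female only. Leaving out 1 replicate gave 756 to 2361 calls: 756 without interneuron-selective animal 4 and 966 without animal 3 (524 and 677 of them among the 1556), 2361 and 2127 without deep chandelier animals 12 and 11. Against CCK basket cells, the 209 calls became 1422 (DESeq2 test), 730 (18 labelled animals), 4 (voom), 354 (without library 2) and 139 (thinned to the smallest replicate total), and 62 to 704 without 1 replicate. Against Martinotti cells, the 480 calls became 1523, 900 and 104 by the first 3 of these, and 271 to 855 without 1 replicate. In the CCK basket pair, the count was 689 and 704 without deep chandelier animals 12 and 11, 62 to 73 without any 1 long projecting animal or PV basket pair of animals, 96 and 102 without upper chandelier animals 14 and 13, 79 and 120 without CCK basket animals 6 and 5 and 100 without interneuron-selective animal 4. In the Martinotti pair it was 855 and 852 without deep chandelier animals 12 and 11, 284 and 310 without Martinotti animals 2 and 1, 291 and 294 without PV basket pairs of animals, and 317 and 312 without long projecting animals 15 and 16. The cause was not tested. All types share 1 estimate of the spread. The settings not named here (DESeq2 size factors, no filter, and each other library left out) moved no count by over 1.5 times.

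Of 178 named gene calls, 67 were lost without animal 4, 7 of them with a change of sign, 40 without animal 3, 1 of them with a change of sign, and 68 with voom. Of those that could be fitted, 95 of 138 were lost in females only and 15 of 174 without library 3. Of the 8 that changed sign, 7 were at 0 in both libraries of animal 3 and Tmem119 in both of animal 4, so the fitted values depend on the prior count and no direction is read from them. Without animal 4 they were fitted at Ermn (-2.92), Mal (-4.96), Mobp (-2.32), Opalin (-1.32), Plxnb3 (-1.95), Slc10a4 (-2.97) and Slc18a3 (-1.37), and without animal 3 at 7.37, 9.12, 7.68, 9.74, 7.34, 6.85 and 9.37. Tmem119 was fitted at -1.33 without animal 3 and at 9.45 without animal 4. No paired analysis was possible because no animal number occurs in more than 1 type. In the simulated data, 21 of 40 genes raised 4-fold were recovered but 4 of 40 lowered to 0.25 of their level. Lowering to 0.25 was thus seldom detected there, and stronger lowering was not simulated.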
